A study of Mus musculus with 24 samples.

Results

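The 6 genes described here, Sox10, S100b, Gfap, Elavl4, Ret and Uchl1, are markers of the glia and neurons of the enteric nervous system. They were taken by symbol from a table of read counts for 39056 genes, and all 6 were found in it. The table holds 24 libraries of RNA from sorted mouse ileum cells, 12 of CD45- cells and 12 of CD45+ cells, with 3 libraries for each genotype and fraction. CD45 marks hematopoietic cells, so the CD45- sort holds epithelial, endothelial and stromal cells together with any glia and neurons that survived the digestion. Peyer's patches were removed, the epithelium was stripped, the lamina propria was digested with collagenase, and part of the epithelial cells was added back before live single cells were sorted.

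The mice were C57BL/6 by the labels, given as C57BL/6J in the study's methods, and 9 to 10.3 weeks old. The 4 genotypes were Hoil1+/+Il4ra f/f, Hoil1+/+Il4raΔIEC, Hoil1-/-Il4ra f/f and Hoil1-/-Il4raΔIEC. HOIL1, encoded by Rbck1, is a subunit of the linear ubiquitin chain assembly complex. Every mouse carried Il4ra flanked by loxP sites, and the ΔIEC mice also carried Vil1-Cre, whose villin promoter is active in intestinal epithelial cells, so any loss of the IL-4 receptor α chain was meant to be restricted to those cells. Glia and neurons were not the intended target. The authors left 3 libraries out of their tests as outliers, namely Hoil1-/-Il4ra f/f replicate 3 of the CD45- cells and Hoil1-/-Il4ra f/f replicate 1 and Hoil1-/-Il4raΔIEC replicate 3 of the CD45+ cells. Tests here used the other 21 libraries (11 CD45- and 10 CD45+), and levels are given for all 24. Replicate numbers only name libraries, and the labels do not say which CD45- and CD45+ libraries came from the same animal.

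The enteric nervous system derives from neural crest and forms plexuses in the gut wall, with glial processes that reach into the lamina propria of the villi. Its progenitors depend on the receptor tyrosine kinase RET, which is activated by ligands of the GDNF family bound to GFRα co-receptors, and on endothelin 3 acting through EDNRB. SOX10 is a transcription factor of the progenitors that is kept in mature glia, S100B a calcium-binding protein and GFAP an intermediate filament of glia. ELAVL4 (HuD) is a neuronal RNA-binding protein, and UCHL1 (PGP9.5) an abundant neuronal ubiquitin hydrolase that is also made by neuroendocrine cells. RET is not restricted to neurons, since group 3 innate lymphoid cells (ILC3) and some enteroendocrine cells are known to express it.

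On GRCm38, Sox10 (ENSMUSG00000033006.9) lies on the minus strand of chromosome 15 from 79154908 to 79165240, and S100b (ENSMUSG00000033208.7) spans 76253853 to 76261159 of chromosome 10, plus strand. Gfap (ENSMUSG00000020932.14) lies on the minus strand of chromosome 11 from 102887336 to 102900912. Elavl4 (ENSMUSG00000028546.17) lies on the minus strand of chromosome 4 from 110203722 to 110351909. Ret (ENSMUSG00000030110.13) lies on the minus strand of chromosome 6 from 118151745 to 118197718. Uchl1 (ENSMUSG00000029223.12) spans 66676091 to 66687234 of chromosome 5, plus strand. The antisense gene Uchl1os overlaps exons of Uchl1 and has no row in the count table. Whether the counting used strand is not given in the sources used here, so its reads may be among those of Uchl1.

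The counts on genes ranged from 6028275 to 68345191 per CD45- library and from 14938629 to 76807504 per CD45+ library. CPM here is the counts-per-million level, with library totals adjusted by TMM over the 24 libraries. Rbck1 ranged from 73.3 to 110 CPM in Hoil1+/+ and from 0 to 7.29 CPM in Hoil1-/- CD45- libraries, and from 90.5 to 158 CPM and 5.38 to 15.9 CPM in the CD45+ libraries, so that the genotypes did not overlap. Ptprc, which encodes CD45, was at 0 to 16.1 CPM in CD45- and 252 to 755 CPM in CD45+ libraries. Epcam, a marker of epithelium, was at 163 to 1270 CPM in CD45- and 7.01 to 68.8 CPM in CD45+ libraries.

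The members fell into 2 kinds. Uchl1 and Ret had counts in all 12 CD45- libraries, whereas Sox10 had counts in 9, S100b and Gfap in 6 each and Elavl4 in 4. Per kilobase of exon, which allows genes to be compared, the mean level over the 12 CD45- libraries was 8.91 ± 5.87 CPM per kb (SD, n = 12) for Uchl1 and 2.97 ± 1.94 (SD, n = 12) for Ret. It was 1.18 ± 1.17 (SD, n = 12) for Sox10, 0.748 ± 1.10 (SD, n = 12) for S100b, 0.195 ± 0.273 (SD, n = 12) for Gfap and 0.104 ± 0.201 (SD, n = 12) for Elavl4. From Ret downward, neighbors in that order differed by less than the larger of their SDs, whereas Uchl1 exceeded Ret by slightly more than its own SD. In bulk RNA such as this, fewer cells of a type and less RNA per cell cannot be told apart.

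Sox10, the glial transcription factor, was the most regularly detected of the sparse genes. In CD45- cells of Hoil1+/+Il4ra f/f mice it was at 0, 1.86 and 2.02 CPM, and in Hoil1+/+Il4raΔIEC mice at 3.76, 3.07 and 6.47 CPM. In Hoil1-/-Il4raΔIEC mice it was at 4.64, 9.82 and 1.39 CPM. In Hoil1-/-Il4ra f/f mice both libraries used by the authors had no Sox10 count, where 3 counts would have been 0.238 and 0.0984 CPM, and the library that was left out had 90 counts or 10.1 CPM, the highest of all 24. The ΔIEC libraries therefore lay above the f/f libraries except for Hoil1-/-Il4raΔIEC replicate 3, as long as the left-out library is not counted. How many of all genes order these libraries in this way was not determined, so this is a description only.

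S100b and Gfap, also glial, each had counts in 6 CD45- libraries, 5 of them the same. S100b was at 3.11, 1.79 and 0 CPM in Hoil1-/-Il4raΔIEC mice, at 2.70 CPM in 1 of 3 Hoil1+/+Il4raΔIEC libraries with the other two at 0, and at 0.501, 0.407 and 0 CPM in Hoil1+/+Il4ra f/f mice. Gfap was at 2.28, 0.893 and 0.831 CPM in Hoil1-/-Il4raΔIEC mice and at 2.96 CPM in the same Hoil1+/+Il4raΔIEC library as S100b, which was the deepest CD45- library. In Hoil1+/+Il4ra f/f mice 1 library held 5 Gfap counts and the others none. Both Hoil1-/-Il4ra f/f libraries used by the authors were at 0 for S100b and Gfap, and the left-out library was at 4.83 and 2.70 CPM. Across the 12 CD45- libraries, S100b and Gfap varied together (Pearson r 0.831, Spearman rho 0.815, given as a description of libraries that also differ in depth), and Sox10 varied with Gfap (r 0.657, rho 0.718) and S100b (r 0.532, rho 0.658).

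Elavl4 was the least detected member. It reached 3.66 CPM (116 counts) in 1 Hoil1+/+Il4ra f/f library and 0.769 CPM in another, 0.890 CPM in 1 Hoil1+/+Il4raΔIEC library and 1.39 CPM in 1 Hoil1-/-Il4raΔIEC library, and had no count in the other 8 CD45- libraries. Unlike the glial genes it was also at 0 in the left-out Hoil1-/-Il4ra f/f library. Its correlation with S100b across the 12 libraries was negative (r -0.486, rho -0.500).

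Uchl1 had 29 to 1300 counts in every CD45- library. It was at 3.63, 14.4 and 23.2 CPM in Hoil1+/+Il4ra f/f mice and at 10.9, 7.03 and 15.5 CPM in Hoil1+/+Il4raΔIEC mice. In Hoil1-/-Il4ra f/f mice it was at 3.65 and 7.21 CPM, with 10.9 CPM in the left-out library, and in Hoil1-/-Il4raΔIEC mice at 30.1, 32.4 and 15.5 CPM. The Hoil1-/-Il4raΔIEC libraries lay above all Hoil1-/-Il4ra f/f libraries, whereas the Hoil1+/+ groups overlapped. The share of all genes that separate these groups in the same way was not counted, so this is a description only.

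Ret was at 15.3, 29.9 and 51.3 CPM in CD45- cells of Hoil1+/+Il4ra f/f mice and at 3.86, 14.7 and 21.6 CPM in Hoil1+/+Il4raΔIEC mice. It was at 13.01 and 15.4 CPM in Hoil1-/-Il4ra f/f mice, with 9.66 CPM in the left-out library, and at 12.8, 17.3 and 36.3 CPM in Hoil1-/-Il4raΔIEC mice. All 4 groups overlapped.

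**Figure D1:**
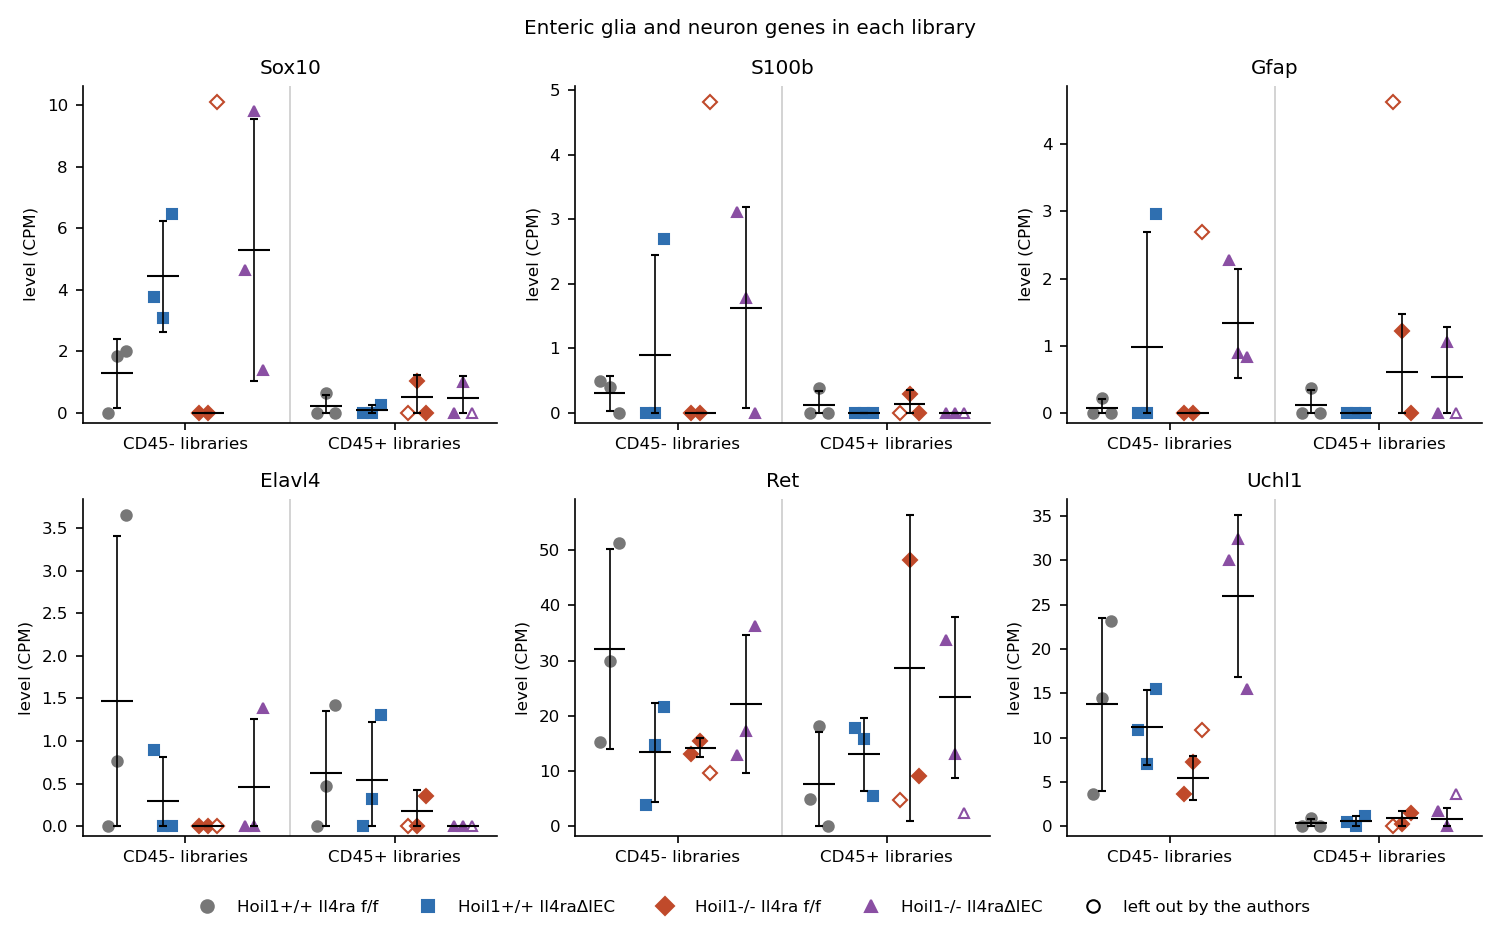
Level in CPM (linear y axes) of each of the 6 genes in the 24 libraries, with CD45- libraries on the left and CD45+ libraries on the right of each panel and 1 symbol per library in the color of its genotype. Bars are the mean and SD of the libraries used by the authors, with the lower arm ending at 0, and open symbols are the left-out libraries, of which the CD45- one reaches 10.1 CPM for Sox10 and 4.83 CPM for S100b.

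The first comparison asked whether loss of HOIL1 or of epithelial Il4ra changed these genes in CD45- cells. The quasi-likelihood test of edgeR was run on all 16453 genes that passed its filter in the 11 libraries. All 6 members passed the filter, some of them through the groups in which they were high. None of the 6 passed an adjusted p of 0.05 for the Hoil1 effect averaged over Il4ra genotypes, for which 0.0182% of all genes tested passed, and 1 of 6 (Sox10) had an unadjusted p under 0.05, against 5.28% of all genes. None passed for the Hoil1 effect within f/f mice (0.0365% of all genes), where Sox10 alone was under 0.05 unadjusted against 13.1% of all genes, or within ΔIEC mice (0.00608%), where none was, against 7.66%. None passed for the Il4ra effect (0.0% of all genes), where 2 of 6 (Sox10 and Gfap) had an unadjusted p under 0.05 against 5.9% of all genes. None passed for the interaction of Hoil1 and Il4ra (0.0%), where 2 of 6 (Sox10 and Uchl1) were under 0.05 unadjusted against 20.7% of all genes. These contrasts share their libraries and are not independent of each other.

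For Uchl1 and Ret, which had counts in every group, no fitted difference in level passed the test. The Hoil1 effect averaged over Il4ra genotypes in log2 units was -0.06 (standard error 0.45, adjusted p = 1.0 from edgeR) for Uchl1 and -0.22 (standard error 0.47, adjusted p = 1.0 from edgeR) for Ret. The Il4ra effect was 0.98 (standard error 0.46, adjusted p = 0.808 from edgeR) for Uchl1 and -0.30 (standard error 0.47, adjusted p = 0.981 from edgeR) for Ret. Within f/f mice the Uchl1 difference between Hoil1-/- and Hoil1+/+ was -1.34 (standard error 0.70) and within ΔIEC mice 1.21 (standard error 0.60), and their difference, the interaction, was 2.55 (standard error 0.93, unadjusted p = 0.0187 and adjusted p = 0.183 from edgeR). For Ret the interaction was 1.91 (standard error 0.96, adjusted p = 0.280 from edgeR).

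Sox10, S100b, Gfap and Elavl4 had no count in the Hoil1-/-Il4ra f/f libraries used, so a fitted fold change depends on the prior count and is not given for contrasts that include that group. Over both libraries together, 3 counts would have been 0.0696 CPM, which puts Sox10 at least 18.6-fold lower than the Hoil1+/+Il4ra f/f libraries, whose mean was 1.29 ± 1.12 CPM (SD, n = 3). That bound does not include the left-out library at 10.1 CPM, with which the Hoil1-/-Il4ra f/f mean was 3.37 ± 5.84 CPM (SD, n = 3) and the direction turned, and the Hoil1+/+ mean itself includes a library at 0. Within ΔIEC mice, where every library had Sox10 counts, the log2 difference between Hoil1-/- and Hoil1+/+ was 0.23 (standard error 1.23, adjusted p = 0.985 from edgeR).

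For the Il4ra effect on Sox10, the adjusted p of edgeR's quasi-likelihood test was 0.412 (unadjusted 0.00157). DESeq2 and edgeR's likelihood ratio test, run as alternatives, gave adjusted p = 0.000712 and 0.00236. The same tools also called Sox10 for the Hoil1 effect within f/f mice (adjusted p = 0.0138 from DESeq2 and 0.0259 from the likelihood ratio test) and for the interaction (adjusted p = 0.0226 and 0.0230). Both tools were run without Hoil1-/-Il4ra f/f replicate 3, and both called more genes than the quasi-likelihood test. Of all 16453 genes, DESeq2 called 166 higher and 447 lower for Hoil1 within f/f mice. It called 116 and 43 for Il4ra, and 686 and 780 for the interaction. When all 12 CD45- libraries were used, edgeR's quasi-likelihood test called no member in these contrasts, and the fitted Sox10 level within f/f mice was higher rather than lower in Hoil1-/- (adjusted p = 0.876 from edgeR).

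An exact permutation test, two-sided on the mean of log2(CPM + 0.1) and free of the fit, was applied to each gene over the 462 ways of assigning 5 and 6 genotype labels to the 11 libraries. Sox10 had a mean of 4.86 CPM in ΔIEC (n = 6) and 0.775 CPM in f/f (n = 5) libraries, a difference of 3.66 on the log2 scale (exact p = 0.00649, adjusted p = 1.0 over 20792 genes). Unadjusted p under 0.05 was reached by 2.15% of all genes for Il4ra and 2.53% for Hoil1. With each library left out in turn the exact p for Sox10 ranged from 0.00794 to 0.0238. With all 12 libraries it was 0.0671 by the exact test. No other member was under 0.05 for Il4ra (exact p = 0.0866 for Gfap, 0.136 for Uchl1, 0.318 for S100b, 0.383 for Ret and 0.773 for Elavl4). For Hoil1 the exact p ranged from 0.470 (Elavl4) to 0.987 (Ret).

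The wider lists of 22 enteric glia genes, 36 enteric neuron genes and 16 genes of GDNF-RET and endothelin signaling held no gene called by edgeR's quasi-likelihood test in these contrasts. Of the 20 glial genes that were tested, 2 had an unadjusted p under 0.05 for Hoil1 and 6 for Il4ra, of the 28 neuron genes 4 and 4, and of the 14 signaling genes 4 and 3, against 5.28% of all genes for Hoil1 and 5.9% for Il4ra. With all 12 libraries these numbers were 1 and 0 of 19 glial, 4 and 3 of 24 neuron and 2 and 1 of 13 signaling genes. The glial genes had a median log2 ratio of ΔIEC to f/f mean CPM of 1.09, with 17 of 20 higher in ΔIEC, and the neuron genes one of -0.38, with 11 of 28 higher, beside a median of 0.02 over all 16453 genes. With all 12 libraries the medians were 0.23 for glia, with 14 of 20 higher, and -0.34 for neurons. In these ratios a mean below the CPM of 3 counts over the group was raised to it. For Hoil1-/- over Hoil1+/+ the medians were 0.14 for glia and -0.20 for neurons, beside -0.00215 over all genes, and with all 12 libraries 0.57 and -0.08. The effects fitted by edgeR, which average the log differences of both Il4ra genotypes, had medians for Hoil1 of -0.37 for glia and -1.04 for neurons, and with all 12 libraries of 0.83 and -1.23, so that the sign of the glial median depended on the measure and on the left-out library. DESeq2 and the likelihood ratio test called Chat, which makes acetylcholine, and Gfra1, the main GDNF co-receptor, for both effects. Over all 16453 genes, DESeq2 called 38 higher and 130 lower for Hoil1, and 116 and 43 for Il4ra. Gfra1 ranged from 3.37 to 5.88 CPM over the ΔIEC libraries and from 1.36 to 2.13 CPM for Hoil1+/+Il4ra f/f, and had no count in the Hoil1-/-Il4ra f/f libraries used, but was at 33.0 CPM in the left-out one. Without that library it was lower in Hoil1-/- (adjusted p = 0.00148 from DESeq2) and higher in ΔIEC (adjusted p = 1.86e-06 from DESeq2), and with all 12 libraries edgeR's fitted differences turned to higher in Hoil1-/- and to slightly lower in ΔIEC, and no call was made (adjusted p = 1.0 from edgeR for both). In Hoil1-/-Il4ra f/f mice Chat reached 10.95 and 11.8 CPM, with no count in the left-out library and at most 0.946 CPM in any other CD45- library.

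Other cells of the CD45- sort varied widely between libraries. The summed CPM of 14 epithelial markers ranged from 1839 to 22620, of 14 endothelial markers from 2720 to 18800, of 12 fibroblast markers from 736 to 10860 and of 11 smooth muscle and pericyte markers from 618 to 6472. The Hoil1-/-Il4ra f/f libraries without Sox10 counts had epithelial sums of 22620 and 20810, and the left-out library of that genotype had 5228. Hoil1+/+Il4raΔIEC libraries with epithelial sums of 21170 and 19270 had Sox10 at 3.76 and 3.07 CPM. Fibroblast markers summed to 737 and 3158 in the former libraries and to 9072 in the left-out library. The part of cell composition in the Sox10 values was not tested beyond the relations that follow.

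Relations of Sox10, Uchl1 and Ret to the summed markers were computed over the 12 CD45- libraries, 22 relations in all with 4 of Ret in CD45+ cells. Pearson r over 12 libraries, and the libraries farthest from the median, were taken on log2 values, with 0.1 CPM added to the gene. Pearson r within clusters used values without logs, so the 2 kinds of r are on unlike scales. Where the marker sums left a gap wider than 25% of their range, the libraries were taken as separate clusters and no pooled value is given. Uchl1 rose with the fibroblast markers (Pearson r 0.867, permutation p = 0.0003, adjusted 0.00352; Spearman rho 0.825, permutation p = 0.00166, adjusted 0.0122), and r was 0.723 without the 2 libraries farthest from the median. Sox10 had r 0.675 (permutation p = 0.0156, adjusted 0.058) and rho 0.718 (permutation p = 0.0108, adjusted 0.0396) with the fibroblast markers, but r fell to 0.332 without the 2 farthest libraries, so the relation rests on them. On the log scale these were the libraries with the lowest fibroblast sums, 736 and 737 CPM, both without a Sox10 count. Ret had r 0.200 (permutation p = 0.540, adjusted 0.565) with fibroblasts. None of the other relations without separate clusters passed adjustment. Marker sums and genes come from the same libraries and share their scaling.

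Endothelial and epithelial sums fell into 2 clusters each, of 8 and 4 libraries. Within the 8 libraries of low endothelial sum, Uchl1 had r 0.758 (permutation p = 0.0284, adjusted 0.170 over 12 relations within clusters) and rho 0.881 (permutation p = 0.0074, adjusted 0.0888), and its range of 3.63 to 23.2 CPM compared with 14.4 to 32.4 CPM in the 4 libraries of high endothelial sum. Within the 8 libraries of low epithelial sum Uchl1 had r -0.676 (permutation p = 0.0651, adjusted 0.195), with 3.65 to 10.9 CPM in the 4 of high epithelial sum. Sox10 in the same clusters had r 0.657 with endothelium (permutation p = 0.0602, adjusted 0.195) and -0.591 with epithelium (permutation p = 0.120, adjusted 0.206). None of these passed adjustment.

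**Figure D2:**
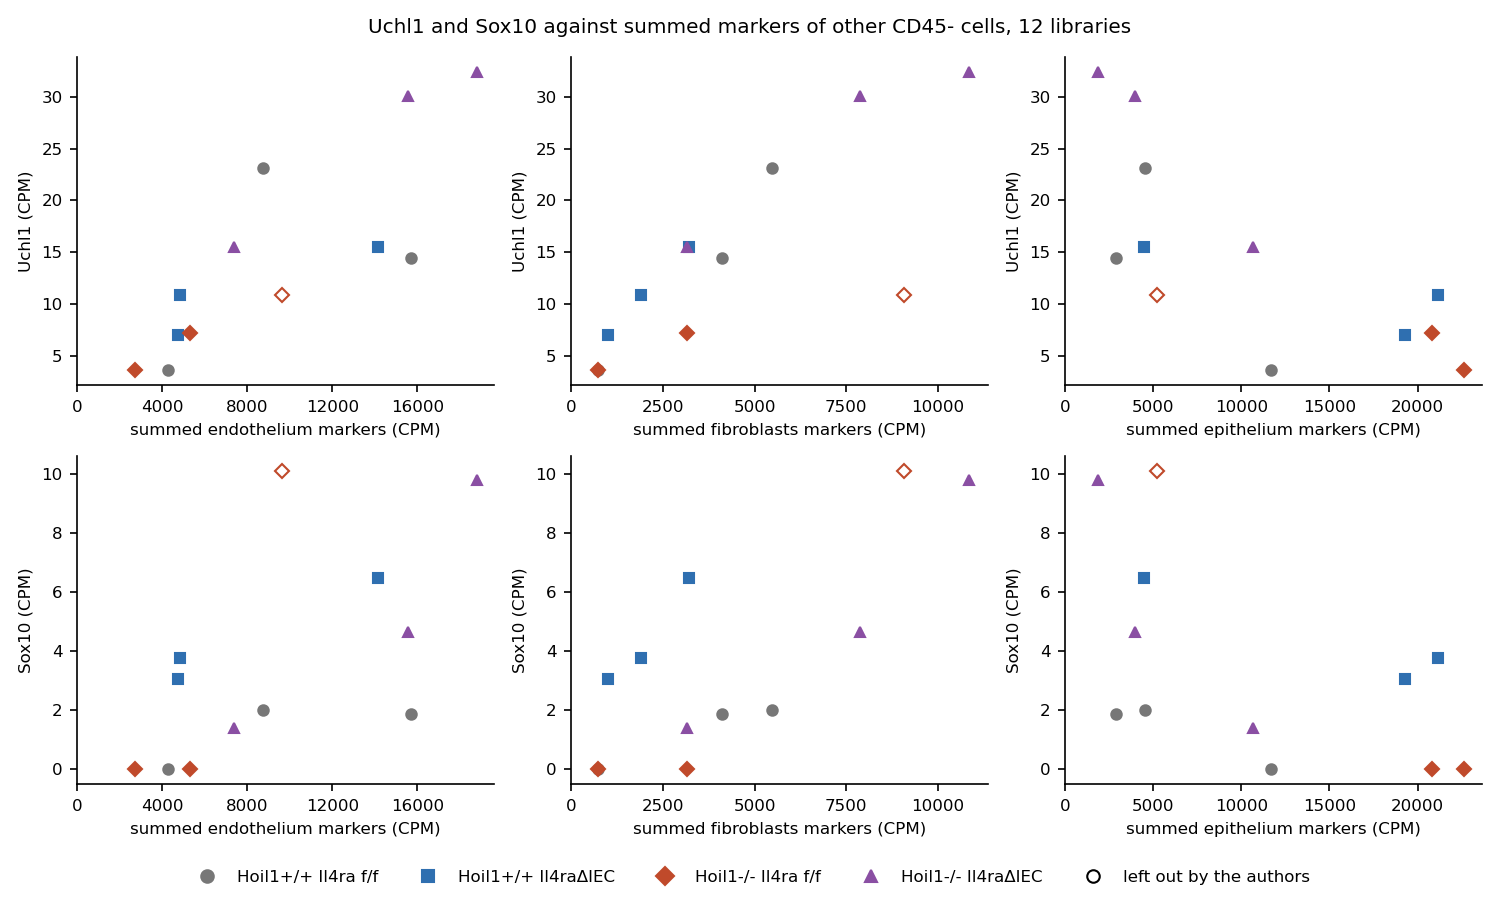
Uchl1 (top) and Sox10 (bottom) in CPM against the summed CPM of endothelium, fibroblast and epithelium markers in the 12 CD45- libraries, on linear axes, with 1 symbol per library in the color and shape of its genotype and the left-out library open. Uchl1 is highest, 30.1 and 32.4 CPM, in the 2 Hoil1-/-Il4raΔIEC libraries with high endothelium and fibroblast sums and low epithelium sums. Pearson r with the fibroblast sums in the text is on log2 values.

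The second comparison set CD45- against CD45+ cells, and asked which of these genes belonged to the non-hematopoietic sort. Uchl1 was at 3.63 to 32.4 CPM in the 11 CD45- libraries and at 0 to 1.69 CPM in the 10 CD45+ libraries used, without overlap. On the log2 scale it was 4.32 higher (standard error 0.92, adjusted p = 0.00088 from edgeR, averaged over genotypes). It was the only member called in that fit, in which 49.6% of 18778 genes were called and 25.1% were higher in CD45- cells. The share of all genes without overlap between the fractions was not counted. The fold rested partly on single CD45+ libraries, since it was 6.28 without Hoil1-/-Il4raΔIEC replicate 1 and 5.90 without Hoil1+/+Il4ra f/f replicate 2, and 5.04 with genotype and age as a block. In the left-out CD45+ library of Hoil1-/-Il4raΔIEC mice Uchl1 was at 3.68 CPM, slightly above the 2 lowest CD45- libraries.

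Sox10 had counts in 4 of 12 CD45+ libraries, at 0.271 to 1.02 CPM, against 9 of 12 CD45- libraries. S100b had counts in 2 CD45+ libraries, at 0.289 and 0.379 CPM. Because some genotypes had no count, the fit with a mean for every group gave no usable error for Sox10, S100b, Gfap and Elavl4, and a fit with genotype as an additive term was added after the data were seen. With the 21 libraries, 28.0% of genes were called higher in CD45- cells, and the log2 fold change was 2.98 for Sox10 (standard error 1.69, adjusted p = 0.146 from edgeR) and 3.68 for S100b (standard error 2.50, adjusted p = 0.227 from edgeR). With all 24 libraries, 28.4% were called higher, and both genes were called, Sox10 at 3.81 (standard error 1.37, adjusted p = 0.0227 from edgeR) and S100b at 5.03 (standard error 1.82, adjusted p = 0.0233 from edgeR). With genotype and age in weeks as a block, likewise added later, 21 libraries gave 23.5% of genes higher in CD45- cells and called Sox10 (adjusted p = 0.00458 from edgeR) and S100b (adjusted p = 0.0355 from edgeR) beside Uchl1. The call of both thus turned on the libraries and on the model.

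Gfap and Elavl4 overlapped between the fractions. Gfap had counts in 4 CD45+ libraries, at 0.366, 1.06, 1.21 and 4.64 CPM, the last in the left-out Hoil1-/-Il4ra f/f library and higher than any CD45- library. Its log2 fold change with all 24 libraries in the additive fit was 1.21 (standard error 1.79, adjusted p = 0.597 from edgeR). Elavl4 had counts in 5 CD45+ and 4 CD45- libraries, with 0.41 (standard error 1.96, adjusted p = 0.882 from edgeR) in the same fit.

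Ret was detected in 11 of 12 CD45+ libraries. It was at 4.83, 18.2 and 0 CPM in Hoil1+/+Il4ra f/f mice, at 17.8, 15.8 and 5.39 CPM in Hoil1+/+Il4raΔIEC mice, at 48.3 and 9.11 CPM in Hoil1-/-Il4ra f/f mice and at 33.7 and 13.03 CPM in Hoil1-/-Il4raΔIEC mice. The left-out libraries of the Hoil1-/- genotypes were at 4.80 and 2.42 CPM. Its log2 fold change between CD45- and CD45+ cells was 0.25 (standard error 0.62, adjusted p = 0.867 from edgeR), and the fractions overlapped. Within CD45+ cells, no member was called for the Hoil1 effect or for the Il4ra effect by edgeR, DESeq2 or the likelihood ratio test, where 0.00587% and 0.00587% of 17029 genes were called by edgeR, and none had an unadjusted p under 0.05. For Ret the Hoil1 effect was 1.35 (standard error 0.98, adjusted p = 0.831 from edgeR) and the Il4ra effect 0.23 (standard error 1.00, adjusted p = 1.0 from edgeR).

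The CD45+ libraries fell into 2 clusters of 6 by the summed CPM of 8 ILC3 markers, at 57.3 to 167 and 290 to 388. Ret ranged from 0 to 18.2 CPM in the first and from 5.39 to 48.3 CPM in the second. Within them r was 0.611 (exact p = 0.189, adjusted 0.283) and 0.861 (exact p = 0.0208, adjusted 0.170), and rho was 0.771 (exact p = 0.103, adjusted 0.286) and 0.829 (exact p = 0.0583, adjusted 0.286). The relation did not pass adjustment in either. Ret also had r 0.747 with enteroendocrine markers in CD45+ cells (permutation p = 0.0158, adjusted 0.058), which was -0.055 without the 2 farthest libraries, with rho 0.308 (permutation p = 0.331, adjusted 0.404). In CD45- cells the smooth muscle and pericyte sums formed clusters of 9 and 3 libraries, and within the 9 Ret had r 0.564 (permutation p = 0.112, adjusted 0.206) and rho 0.600 (permutation p = 0.0961, adjusted 0.286).

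**Figure D3:**
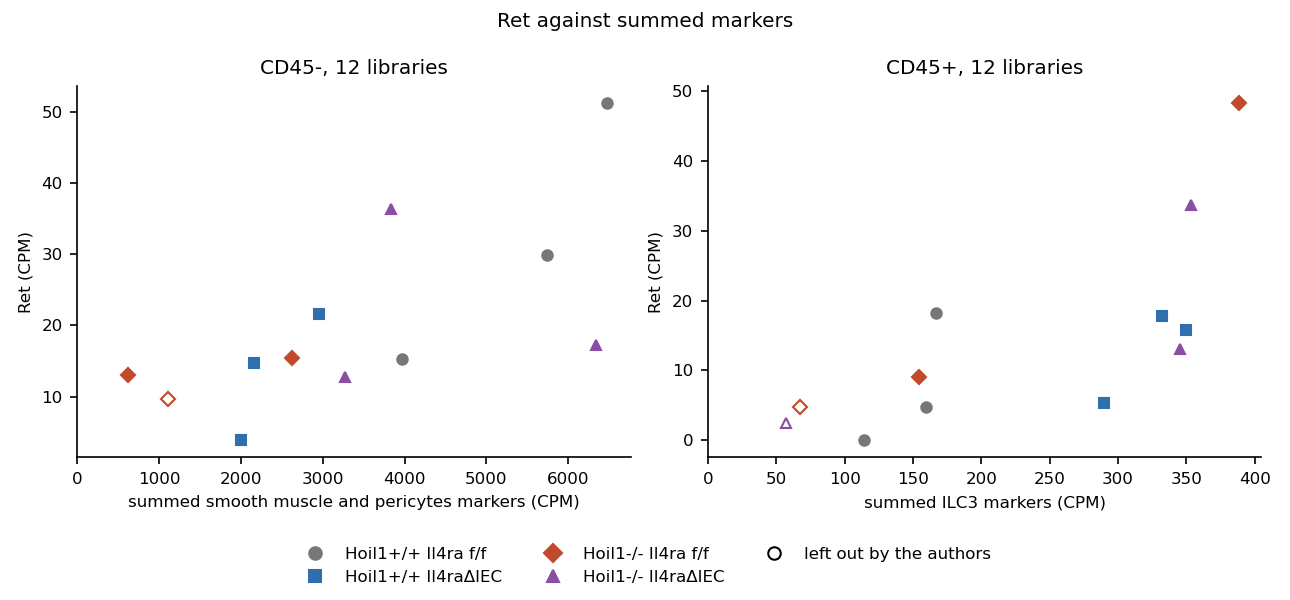
Ret in CPM against summed markers of smooth muscle and pericytes in the 12 CD45- libraries (left) and of ILC3 in the 12 CD45+ libraries (right), on linear axes with 1 symbol per library and the left-out libraries open. The CD45+ library with the highest ILC3 sum, 388 CPM, also has the highest Ret level, 48.3 CPM.

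Mean levels were higher in CD45- than in CD45+ cells for 20 of 22 glial, 27 of 31 neuron and 12 of 14 signaling genes tested, not all of which passed the test. Among the 22 glial genes, 12 were higher in CD45- cells and none lower by edgeR's quasi-likelihood test, against 25.1% of all genes tested called higher, and the median log2 ratio of mean CPM was 3.64 over the list, beside 0.02 over all 18778 genes. Those with counts in every group included Erbb3, a neuregulin receptor (log2 fold change 3.81, standard error 0.33), Ednrb, the endothelin 3 receptor (4.64, standard error 0.64), and L1cam, an adhesion molecule of neural cells (2.17, standard error 0.19), with adjusted p from 1.27e-07 for L1cam to 1.64e-05 for Ednrb from edgeR. Erbb3, L1cam and Ednrb were also the 3 glial genes of highest mean level in CD45- cells, at 140, 49.1 and 40.5 CPM (SD 87.8, 7.64 and 25.9, n = 12). As background, these 3 are also made by other cells of the CD45- sort, Erbb3 by epithelium and Ednrb by endothelium among them. Others that were higher included Cdh19, Entpd2, Scn7a, Foxd3, Kcna1, Cryab, Gfra2 and Gfra3.

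Among the 36 neuron genes, 31 were tested, 8 were higher in CD45- cells and 1 was lower, a share of higher genes close to the 25.1% of all genes. Those higher were Uchl1, Stmn2, Snap25, Tbx3, Tac1, Hand2, Nefl and Prph. Tbx3, a transcription factor not restricted to neurons, Stmn2, a tubulin-binding protein of growing axons, and Ret had the highest mean levels, at 90.8, 27.3 and 20.1 CPM (SD 61.2, 15.7 and 13.1, n = 12). The gene that was lower was Calca, which encodes calcitonin and CGRP, with no count in any CD45- library and counts in 9 CD45+ libraries at a mean of 4.56 CPM. Many neuron genes were sparse. In all, 17 of the 36 neuron genes and 5 of the 22 glial genes had a mean under 1 CPM in CD45- cells, against 31 and 14 in CD45+ cells.

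**Figure D4:**
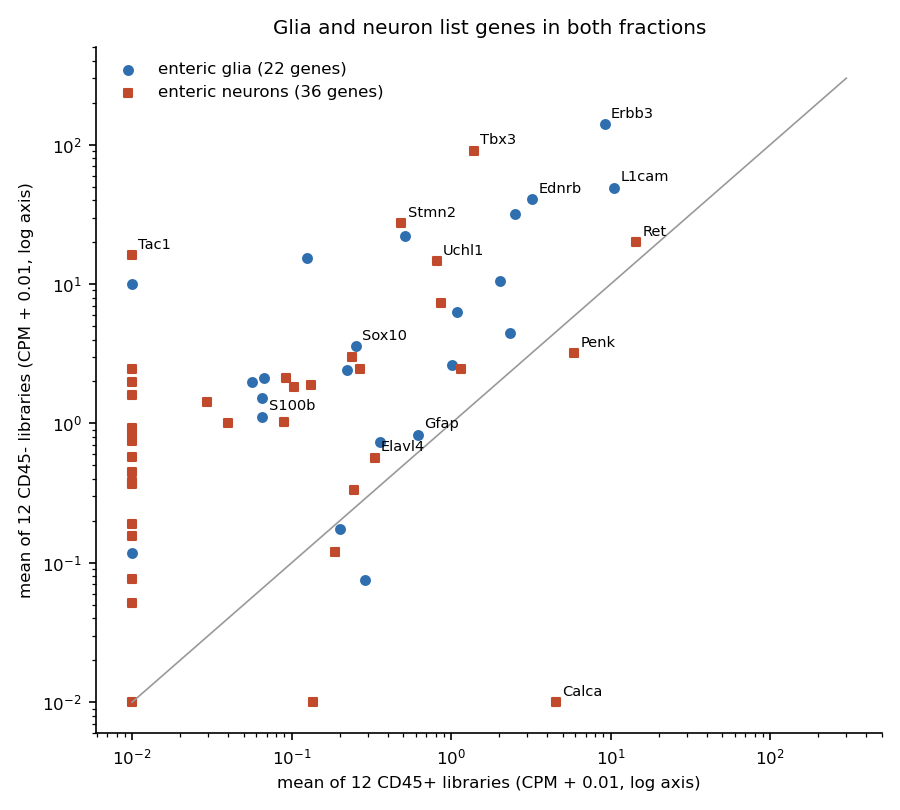
Mean CPM of each gene of the enteric glia list (22 genes, circles) and the enteric neuron list (36 genes, squares) in the 12 CD45- libraries (y axis) against the 12 CD45+ libraries (x axis), both with 0.01 CPM added and on log axes, with the diagonal marking equal means. Above the diagonal lie 20 glial and 31 neuron genes, Ret lies close to it, and Penk and Calca are among those below it.

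Of the 16 signaling genes, 14 were tested, 7 were higher in CD45- cells, against 25.1% of all genes, and 1 was lower. The GDNF family ligands Nrtn and Artn, the co-receptors Gfra2 and Gfra3, the ligand Edn3 with its receptor Ednrb, and Ece1, the protease that activates endothelins, were those higher. Ece1, the most abundant, was at 441 ± 233 CPM (SD, n = 12) in CD45- and 64.8 CPM in CD45+ libraries (log2 fold change 2.49, standard error 0.29, adjusted p = 2.33e-06 from edgeR), and is also a known product of endothelium. Gdf15, a distant relative of GDNF, was the gene that was lower (log2 fold change -2.001, with a standard error of 0.54 and adjusted p = 0.00512 from edgeR). Gdnf itself had counts in 8 CD45- libraries, at a mean of 2.74 CPM, and in 1 CD45+ library.

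The genes whose level was most like that of each member over the 12 CD45- libraries were found by Pearson r of log2(CPM + 0.5) among 15332 genes. For Gfap they were Wnt2 (r 0.904), S100b (0.889) and Itpa-ps1 (0.867). For S100b they were Adhfe1 (0.953), Ptprz1 (0.937) and 1700084E18Rik (0.927), of which Ptprz1 is a receptor phosphatase known from glia. For Sox10 they were Fam167b (0.970), Hcar1 (0.920) and Gm42517 (0.918), and for Elavl4 6330403K07Rik (0.980), Lage3 (0.958) and Slc7a14 (0.900). For Ret they were Chst12 (0.898), Spock2 (0.895) and Sp6 (0.873), and for Uchl1 Fbxw2 (0.945), Trib2 (0.935) and P4ha2 (0.934). These values describe 12 libraries that share depth and composition differences, with many values at 0, and carry no test.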

How the data were processed

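RNA of live CD45- and CD45+ singlets was made into poly(A)-selected libraries. Adapters were removed with cutadapt, and STAR alignments to mm10 were assigned to ENSEMBL genes by featureCounts. The values deposited by the authors are raw counts without normalization; versions and counting options are not given in the sources used here. IDs were matched to symbols, positions and exon lengths of GENCODE M21 without their version (38872 of 39056).

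Groups came from the genotype and cell type labels. Genes were tested by quasi-likelihood with edgeR 4.0.16 (R 4.3.3) on the 11 CD45-, the 10 CD45+ or all 21 libraries of the authors' list, with TMM scaling, genes kept at a minimum count of 10 and total of 15, a mean per group, Benjamini-Hochberg adjustment over all genes tested and a threshold of 0.05. Alternatives were all libraries, RLE size factors, no filter, DESeq2 1.42.0, the likelihood ratio test, exactTest within Il4ra genotypes, each library left out, and, added after seeing the data, the additive genotype fit, genotype with age as a block, and list medians over all 12 CD45- libraries. Exact permutation tests used a pseudocount of 0.1 CPM, or 1 CPM or total-count CPM as alternatives. Pearson r over 12 libraries used log2 values with 0.1 CPM added to a gene (0.5 CPM for the most alike genes), and r within clusters used values without logs. Correlations with marker sums over 12 libraries used 100000 permutations, and within clusters of 8 or 9 libraries 20000 (scipy 1.17.1, Python 3.11.15). A count of 3 was taken as the detection limit, for counting error only. The code was tested on simulated counts with known changes. The rule for clusters of libraries was set after seeing the data.

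The members, the marker lists and the rule for named genes were chosen with earlier results of these data known. Named were the members, the list genes past the threshold or among the 3 of highest mean CPM in CD45- cells, the 3 genes most like each member, and Rbck1, Ptprc and Epcam. Chat, Gfra1, Gdnf, Penk, Map2 and Cryab outside CD45- against CD45+ were named after their values were seen. So were the list genes named only as calls of alternative settings. Some list genes are not reported here by name. Replicates are separate libraries. The labels do not say that each is a separate animal, so p-values measure the spread between libraries.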

Additional observations from a re-analysis of the deposited data

Results flagged for a closer look

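4 values stood out because they came from libraries outside the tests and exceeded every Hoil1+/+ library of their fraction. Among CD45- cells, Sox10 in replicate 3 of Hoil1-/-Il4ra f/f was at 10.1 CPM, against at most 6.47 CPM in Hoil1+/+ libraries. S100b was at 4.83 CPM in the same library, against at most 2.70 CPM. Among CD45+ cells, Gfap in replicate 1 of Hoil1-/-Il4ra f/f was at 4.64 CPM, against at most 0.366 CPM. Uchl1 in replicate 3 of Hoil1-/-Il4raΔIEC was at 3.68 CPM, against at most 1.13 CPM. For the same genes, Hoil1-/- libraries inside the tests also exceeded every Hoil1+/+ library of their fraction. In CD45- cells, Hoil1-/-Il4raΔIEC libraries reached 9.82 CPM for Sox10 and 3.11 CPM for S100b. In CD45+ cells, Gfap reached 1.21 CPM in Hoil1-/-Il4ra f/f and Uchl1 1.69 CPM in Hoil1-/-Il4raΔIEC libraries that were tested. The share of all genes with such values was not counted.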

How the results depend on the processing

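No member was called for Hoil1 averaged over Il4ra genotypes, for Hoil1 within ΔIEC mice or in CD45+ cells under any alternative run. With DESeq2 and with the likelihood ratio test, 1 member (Sox10) was called for Hoil1 within f/f mice, 1 for Il4ra and 1 for the interaction. Of all 16453 genes, DESeq2 called 166 higher and 447 lower within f/f mice, 116 and 43 for Il4ra, and 686 and 780 for the interaction. The likelihood ratio test called 104 and 246, 88 and 55, and 587 and 636 in the same order. Between the fractions, 3 members were called with all libraries, in the group means fit and in the additive fit, and 3 with genotype and age as a block. Of 17903 genes with all libraries, 4663 were called higher and 4380 lower in CD45- cells by group means, and 5089 and 4540 in the additive fit. With the block, 4414 of 18778 were called higher and 3924 lower. For Hoil1 averaged over Il4ra genotypes, DESeq2 and the likelihood ratio test called 1 neuron gene (Chat) and 1 signaling gene (Gfra1). For Il4ra they called 1 glial, 1 neuron and 2 signaling genes (Sox10, on both the glial and signaling lists, Chat and Gfra1). Leaving out single libraries gave 0 to 1 glial and 0 to 1 neuron genes for Hoil1, and 0 to 2 glial, 0 to 1 neuron and 0 to 1 signaling genes for Il4ra. All of these calls came without Hoil1-/-Il4ra f/f replicate 2, which leaves that group with 1 library assumed to vary like the others, and the genes included Map2, Cryab and Gfra1. Beside Sox10, DESeq2 and the likelihood ratio test called Tubb3, Ngfr and Gfra1 for Hoil1 within f/f mice. DESeq2 also called Gdf15, Vip and Gdnf. Within ΔIEC mice DESeq2 called Tbx3, where it called 29 of all 16453 genes as higher and 109 as lower. For the interaction both called Tbx3, Tubb3, Erbb3, Ngfr, Gdnf and Gfra1. DESeq2 added Edn3 and Gap43, and the likelihood ratio test Calcb, Cartpt and Cmtm5. Leaving out Hoil1+/+Il4raΔIEC replicate 3 also called Tbx3, Erbb3, Gdnf and Gfra1 for the interaction. That fit called 561 of all 16019 genes tested as higher and 638 as lower. The 9 neuron genes called between the fractions became 14 with DESeq2 and 19 in both additive fits. Over all 18778 genes, DESeq2 called 5340 higher and 4466 lower in CD45- cells, and the additive fit of 21 libraries 5260 and 4737. The cause of these differences between fits was not tested.

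With all libraries, the fitted Hoil1 difference within f/f mice turned from lower to higher in Hoil1-/- for genes including Sox10, S100b, Gfap and Gfra1. Of these named genes, Sox10 (DESeq2 and the likelihood ratio test) and Gfra1 (those 2 and exactTest) had been called as lower. In that contrast exactTest called 64 of all 16453 genes as higher and 139 as lower. The other changes of sign given here by gene name were in differences that were not called. Within f/f mice, 4 of 20 glial genes were fitted as higher in Hoil1-/- with 11 libraries and 15 of 19 with all 12. The numbers were 5 of 28 and 8 of 24 for neuron genes, and 1 of 14 and 5 of 13 for signaling genes. The Hoil1 effect on Uchl1 in CD45- cells was 0.16 with all libraries. With single libraries left out, it ranged from -0.33 to 0.25 for Uchl1 and from -0.52 to 0.052 for Ret. The Hoil1 difference of Sox10 within ΔIEC mice ranged from -0.53 to 0.67, and the Il4ra effect on Ret in CD45+ cells from -0.19 to 1.07. In the permutation tests, the Hoil1 difference ranged from -0.56 to 0.86 for S100b, from -0.44 to 0.30 for Ret and from -0.011 to 0.77 for Uchl1, and the Il4ra difference from -1.01 to 0.42 for Elavl4. No paired analysis was possible because replicate numbers were given in accession order and the labels name no animal. Genotype and age in weeks put 17 of the 21 libraries in 6 classes that held both fractions, 3 of them with 1 library of each, but libraries of a fraction can share an age, so a class need not be 1 animal. Depth limits the sparse genes, since 3 counts are 0.0358 to 0.416 CPM in a CD45- library.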
